A study of Mus musculus with 12 samples.

Results

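The effect of giving FK228 together with class I histone deacetylase (HDAC) YF mutants was read from 3 RNA-seq libraries of AML12 cells given both and 3 libraries of control AML12 cells, out of 12 libraries in the series. Every gene that passed a filter on low counts entered the comparison, which was 13346 of the 19037 genes in the table. AML12 is a mouse hepatocyte line, by background derived from the liver of a mouse carrying a transforming growth factor alpha transgene. The RNA was total RNA, and the labels give the tissue as liver and the cells as hepatocytes. The control libraries carry a GFP code in their descriptions that the labels do not explain, as do the libraries of cells given FK228 alone, and the labels name no agent for the control. The combination group carries a code of YF and fk and is titled with both treatments. The other 2 groups, used here only to place the combination, are FK228 alone and YF alone, each with 3 libraries. The sources used here state no dose, time, construct or mutated HDAC, nor the number of cultures or clones. Replicates are not said to be separate cultures, so each p-value measures spread among libraries that may be only technical.

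HDACs take acetyl groups off lysines of histones and other proteins, and the class I enzymes do so mostly in the nucleus, as the catalytic subunits of corepressor complexes that keep genes off. FK228, also called romidepsin, is a cyclic peptide drug that is reduced in cells to a thiol, which binds the zinc of the class I active site. YF in the usual notation is a change of tyrosine to phenylalanine, and a tyrosine in the HDAC active site takes part in catalysis. HDAC inhibitors are known for arresting the cell cycle, for switching on genes that are silent in the treated cell type and for lowering the transcripts of cell identity genes.

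Libraries held 23664446 to 26122998 counts, and 14970 to 15007 genes had a count in the control libraries against 16261 to 16389 in the combination libraries. On the first 2 principal components, with 78.7% and 11.7% of the variance, the libraries of each group lay together. Among 14 hepatocyte markers, control held Krt8 (1415 CPM, a count scaled to the size of its library), Krt18 (1284), Trf (519), Apob (429) and Hnf4a (177), whereas Alb, which encodes albumin, had 0.0387 CPM, Cps1 0.0777 CPM and Arg1 no count. Keratins and hepatocyte transcription factors were thus present, but the defining markers albumin and these 2 urea cycle enzymes were at or near 0.

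The combination moved most of the transcriptome, in both directions. Of the 13346 genes, 5172 (38.8%) were higher and 5153 (38.6%) lower than in control at a Benjamini-Hochberg adjusted p of 0.05 in edgeR's quasi-likelihood test, 77.4% in all. These shares are the background for the counts of list members below. Levels are relative to each library, and the scaling between libraries (TMM) assumes that most genes are unchanged. It centres fold changes near 0, so the even split, and the median below, partly follow from it. A shift of most genes together, or of total RNA per cell, cannot be seen here. A stricter test asked whether a change exceeds 2-fold, and 1494 genes (11.2%) were higher and 1233 (9.24%) lower, 20.4% in all. With a filter of 5 CPM in 3 libraries the counts were 773 and 955, so that the higher share of these calls went from 54.8% to 44.7%. The median log2 fold change over all genes was 0.01 and the median size 0.56, beside 0.40 for FK228 alone and 0.17 for YF alone against the same control libraries. The largest changes went up: 579 genes had a log2 fold change of 3 or more and 147 one of -3 or less. In 78.7% of the genes tested the control and combination libraries did not overlap, so a lack of overlap alone sets no gene apart.

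**Figure D1:**
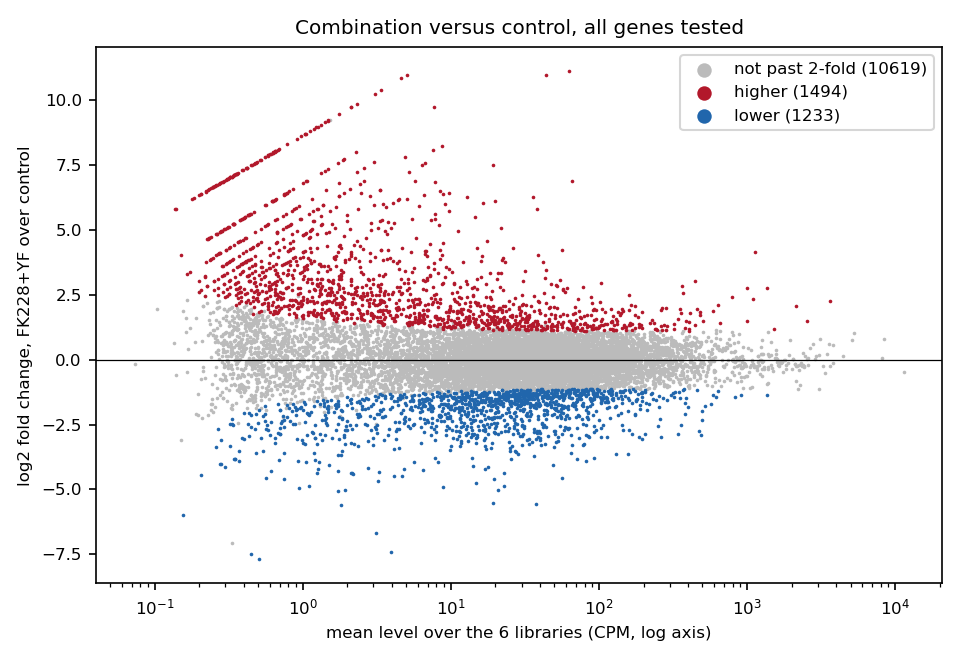
Each point is 1 of the 13346 genes tested, with its mean level over the 3 control and 3 combination libraries on the x axis (CPM, log axis) and its log2 fold change in the combination over control on the y axis. Colours mark the 1494 genes higher and 1233 lower in the test against 2-fold, and the highest fold changes belong to genes of low mean level.

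Rises and falls came from different expression levels. Among the 1712 genes under 1 CPM in control, 47.7% passed 2-fold upwards and 2.34% downwards. Genes near 0 in control could pass the filter on low counts only by being high elsewhere, so the filter fixes part of this upward share. List counts in this report cover only members that passed, so the same holds for their members near 0 in control. From 10 to under 100 CPM the order was the other way, with 3.63% of 7246 genes higher and 9.73% lower, and from 100 CPM it was 2.38% and 10.98% of 2103 genes.

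**Figure D2:**
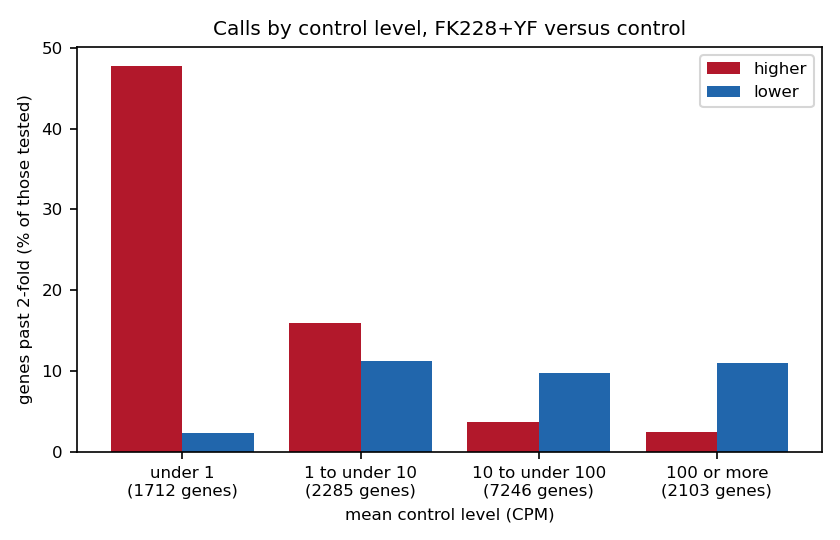
Bars give the percentage of tested genes that passed 2-fold upwards (red) or downwards (blue) in the combination versus control, by mean control level in CPM, with the number of genes under each pair. The upward share falls from 47.7% in the lowest class to 2.38% in the highest, and the downward share is 2.34% in the lowest class and 9.73% to 11.2% in the other 3.

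Class I HDAC transcripts were read first, since the YF cells overexpress mutants of this class. Hdac1 read 101, 101 and 91.8 CPM in the control libraries and 799, 795 and 798 CPM in the combination libraries. All combination libraries lay above all control libraries, and the difference was 3.03 ± 0.06 on the log2 scale (± SE, adjusted p = 2.16e-19, edgeR). It was 110.2 CPM with FK228 alone and 402 CPM with YF alone, so that the combination also lay above both. Hdac8 rose from 17.9 ± 0.567 to 38.7 ± 0.782 CPM (mean ± SD of 3 libraries, as throughout; log2 1.11 ± 0.07) and Hdac3 from 105 ± 2.66 to 144 ± 3.39 CPM (0.45 ± 0.05), while Hdac2 was 176 ± 7.598 CPM in control and 177 ± 10.4 in the combination, with overlapping libraries (adjusted p = 0.879, edgeR). All 4 class I genes, Hdac2 among them, were higher in the combination than with FK228 alone. Whether class I HDAC reads come from the cells' own genes or from constructs cannot be told apart here. Hdac1 lies at chr4:129516104-129542646 and Hdac8 at chrX:102284638-102505381 in GRCm38.p6.

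Genes of cell division fell as a block. All 61 tested genes of the mitosis list, which covers the kinetochore, the spindle and cytokinesis, were lower, 58 of them by more than 2-fold, where 38.6% and 9.24% of all genes were, with a median log2 fold change of -2.63 beside 0.01 over all genes. The medians of the same 61 genes were -2.26 with FK228 and 0.01 with YF. Plk1, a kinase that drives entry into and passage through mitosis, read 125, 108 and 125 CPM in the control libraries and 13.01, 11.5 and 11.9 CPM in the combination libraries. The groups are far apart, and on the log2 scale the fall was -3.298 ± 0.08 (adjusted p = 9.25e-19, edgeR). Kif20a, a kinesin needed for cytokinesis, fell from 142 ± 11.4 to 14.5 ± 1.81 CPM, Kif2c, a kinesin that depolymerises microtubules at centromeres, from 45.8 ± 2.87 to 4.35 ± 0.622 CPM, and Cdc20, which activates the anaphase-promoting complex, from 54.7 ± 3.58 to 5.61 ± 1.38 CPM. The mitotic cyclins went with them: Ccnb2 fell from 120.1 ± 1.76 to 9.94 ± 1.83 CPM (-3.59 ± 0.08), Ccnb1 from 90.997 ± 8.01 to 8.76 ± 1.98 CPM and Ccna2 from 142 ± 10.6 to 14.97 ± 1.79 CPM.

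Promoters of mitotic genes are known to share a short element, the cell cycle genes homology region (CHR), with the core letters TTTGAA, and CCAAT boxes. The CHR is read by the complexes that repress these genes in resting cells. RefSeq promoter windows of GRCm38.p6 (250 bases before to 50 after the start, 1 start a gene) were found for 52 of the 61 genes. TTTGAA occurred on either strand in 67.3% of them, against 18.1% of all 27025 promoters of this length, and CCAAT in 69.2% against 37.9%. Among the 10651 tested genes with a promoter the shares were 12.5% for TTTGAA and 39.7% for CCAAT. The 35 genes with TTTGAA had a median log2 fold change of -2.74 and the 17 without it -2.49. These are counts of letters, not of bound sites. The windows of Ccnb2 (chr9:70421505-70421804, minus strand), Plk1 (chr7:122159185-122159484, plus strand), Cdc20 (chr4:118437294-118437593, minus strand) and Ccnb1 (chr13:100786437-100786736, minus strand) are shown 5′ to 3′ because these genes are among those of the list and the cyclins that fell most. Capitals mark TTTGAA and CCAAT and their reverse complements.
Ccnb2: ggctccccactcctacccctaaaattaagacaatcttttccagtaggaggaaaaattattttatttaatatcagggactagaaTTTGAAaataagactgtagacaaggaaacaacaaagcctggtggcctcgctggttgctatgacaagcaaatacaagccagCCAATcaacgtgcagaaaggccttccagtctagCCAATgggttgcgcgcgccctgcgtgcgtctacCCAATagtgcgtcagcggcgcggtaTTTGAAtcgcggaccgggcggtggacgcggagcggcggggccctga
Plk1: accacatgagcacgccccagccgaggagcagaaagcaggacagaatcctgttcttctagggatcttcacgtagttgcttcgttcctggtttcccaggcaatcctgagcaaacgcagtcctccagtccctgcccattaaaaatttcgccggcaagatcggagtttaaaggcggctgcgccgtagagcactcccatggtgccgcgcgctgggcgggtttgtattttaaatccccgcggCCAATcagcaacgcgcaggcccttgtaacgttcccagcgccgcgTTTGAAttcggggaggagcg
Cdc20: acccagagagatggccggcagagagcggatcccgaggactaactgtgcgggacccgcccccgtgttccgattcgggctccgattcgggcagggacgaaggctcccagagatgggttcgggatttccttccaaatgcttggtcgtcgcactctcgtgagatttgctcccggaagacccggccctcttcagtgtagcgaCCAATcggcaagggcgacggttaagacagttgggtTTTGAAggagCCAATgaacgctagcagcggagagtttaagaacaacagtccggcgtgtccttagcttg
Ccnb1: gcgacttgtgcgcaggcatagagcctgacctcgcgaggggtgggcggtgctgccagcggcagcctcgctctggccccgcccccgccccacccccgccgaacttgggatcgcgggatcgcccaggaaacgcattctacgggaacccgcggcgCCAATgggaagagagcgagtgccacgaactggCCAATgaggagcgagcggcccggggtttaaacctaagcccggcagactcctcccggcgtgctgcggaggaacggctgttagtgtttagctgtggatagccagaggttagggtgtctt
The Ccnb2 window holds 2 matches to TTTGAA and 3 to CCAAT, that of Plk1 holds 1 of each, and that of Cdc20 holds 1 and 2. Ccnb1 fell as far with 0 matches to TTTGAA and 2 to CCAAT in its window.

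Replication and repair genes were lower too, by less. Of 51 DNA replication genes 5 were higher and 43 lower, with a median of -1.15. Mcm5, a subunit of the replicative helicase, fell from 70.6 ± 11.8 to 12.5 ± 1.55 CPM, Clspn, a mediator of the replication checkpoint, from 21.7 ± 3.49 to 3.39 ± 0.828 CPM, and Tk1, which makes thymidine monophosphate, from 92.1 ± 10.3 to 19.2 ± 3.28 CPM. Of 40 repair and checkpoint genes 4 were higher and 33 lower (median -1.08), among them the DNA glycosylase Neil3 (-3.47 ± 0.14), the structure-specific endonuclease subunit Eme1 (-3.03 ± 0.104) and the Fanconi anaemia gene Fancd2 (-2.99 ± 0.13). Among 22 cyclin, CDK and CDC25 genes 5 were higher and 16 lower. Those lower included Cdk1 (from 182 to 32.1 CPM), Cdk4 (from 852 to 329 CPM) and Ccnd1 (from 461 to 195 CPM), and those higher Ccne1, which acts at the G1 to S step (from 10.8 to 31.2 CPM), and Ccnd2 (from 23.2 to 44.3 CPM); these 5 were chosen after their values were seen.

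Inhibitors of the cell cycle did not move one way. Cdkn2a, which encodes p16INK4a and p19ARF, read 59.7, 68.4 and 67.5 CPM in the control libraries and 181, 162 and 192 CPM in the combination libraries, a log2 fold change of 1.45 ± 0.09 with no overlap. Cdkn2b, a second INK4 inhibitor, rose from 49.5 ± 2.83 to 99.1 ± 2.28 CPM, and Cdkn1b (p27) fell from 54.3 ± 1.99 to 35.02 ± 0.316 CPM. Cdkn1a, the p21 gene and a classical target of p53, rose from 265 ± 5.49 to 337 ± 16.9 CPM (0.35 ± 0.06, adjusted p = 8.25e-06, edgeR); it was named after its values were seen. The retinoblastoma gene Rb1 rose from 32.8 ± 0.983 to 92.7 ± 4.304 CPM, its relative Rbl1 fell from 36.1 ± 6.43 to 14.1 ± 0.639 CPM, and Lin9, a subunit of the complex that reads CHR elements, fell from 23.1 ± 3.58 to 4.26 ± 0.835 CPM. Of 33 p53 targets 16 were higher and 10 lower, where 38.8% and 38.6% of all genes were, with a median of 0.14. The polo-like kinases Plk3 (2.36 ± 0.16) and Plk2 (1.66 ± 0.08) rose, and the receptor gene Eda2r fell (-1.47 ± 0.09). Apoptosis genes leaned down, with 15 of 25 BCL2 family and caspase genes lower and 4 higher. Bmf, a BH3-only protein gene, fell from 218 ± 24.95 to 49.8 ± 2.88 CPM and Casp8 from 108 ± 7.08 to 45.7 ± 1.62 CPM.

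**Figure D3:**
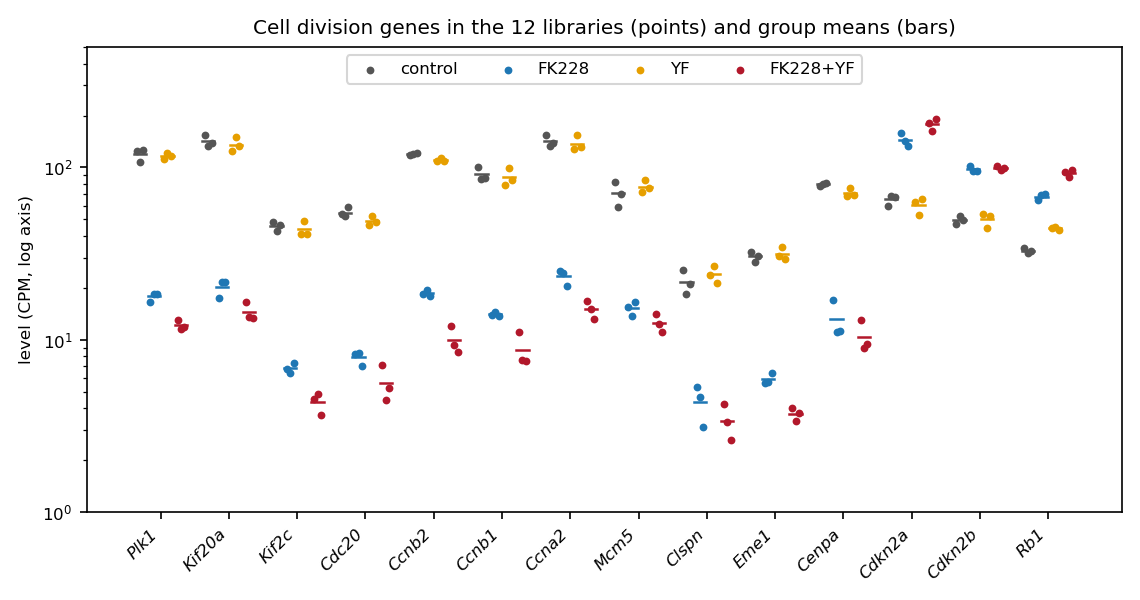
Points are the 12 libraries and short bars the group means for 14 cell division genes, in CPM on a log axis, in the order control, FK228, YF and FK228+YF within each gene. From Plk1 to Cenpa the combination libraries lie far below the control libraries, while for Cdkn2a, Cdkn2b and Rb1 they lie above.

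Genes of the acetylation machinery fell more often than they rose. Of 38 genes of HDAC corepressor complexes 25 were lower and 8 higher (5 higher without control replicate 2), and of 25 acetyltransferase and bromodomain genes 21 and 3. Chd3, a remodelling ATPase of the NuRD complex, read 491, 444 and 473 CPM in the control libraries and 59.9, 59.3 and 58.03 CPM in the combination libraries. That is a log2 fold change of -2.99 ± 0.06, with no overlap. The acetyltransferase genes Kat2b (PCAF) and Crebbp fell by 1.81 and 1.44 on the log2 scale, to 9.17 ± 0.572 and 6.48 ± 0.442 CPM. The class II gene Hdac7 fell from 117 ± 5.01 to 46.1 ± 5.44 CPM, Hdac6, which deacetylates tubulin, rose from 97.2 ± 0.944 to 157 ± 7.89 CPM, and the sirtuin gene Sirt2 rose from 155 ± 12.5 to 298 ± 3.68 CPM. In the DNA methylation and Polycomb list 20 of 28 genes were lower and 5 higher, with Bmi1, a Polycomb ring finger protein, from 70.7 to 17.97 CPM and Uhrf1, which brings the maintenance methyltransferase to replicating DNA, from 52.6 to 18.2 CPM.

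Histone genes split by class. Replication-dependent histone genes, which are normally transcribed in S phase into mRNAs without a poly(A) tail, rose in 22 of 28 tested members, 21 of them past 2-fold, and lower in 3, with a median of 3.06. Of the 44 genes of the list, 16 failed the count filter, and the median control level of those tested was 0.246 CPM. Members near 0 in control could pass only by being high elsewhere, and 47.7% of all genes under 1 CPM in control rose past 2-fold, so these counts describe the members that passed and no more. H3c13, which encodes histone H3, read 0, 0 and 0.117 CPM in the control libraries and 84.3, 84.1 and 95.2 CPM in the combination libraries; its summed counts were 3 in control and 6371 in the combination, a ratio of 2288 (95% counting interval 783 to 11098). H3c13 and H3c11 (0.219 to 19.2 CPM) were near 0 with FK228 alone (0.0827 and 0.369 CPM) and present with YF alone (29.7 and 5.92 CPM). H1f3 and H1f4, linker histone genes, were 5.19 and 4.45 CPM with FK228 alone and 0.4502 and 0.257 CPM with YF alone, and stood at 6.71 and 3.92 CPM in the combination. H2ac10 went the other way, from 91.9 ± 13.4 to 5.56 ± 0.781 CPM; it was named after its values were seen. Histone genes of this class are near copies of one another, so the division of reads among them is uncertain, and the sources used here do not say whether libraries were selected for poly(A) RNA. Of 10 variant histone genes 0 were higher and 6 lower, with the centromeric histone gene Cenpa from 79.6 to 10.4 CPM and H2az1 from 376 to 192 CPM.

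Liver transcription factors fell. Of 21 hepatocyte transcription factor genes 17 were lower, 6 of them past 2-fold, and 1 was higher, with a median of -0.71. Hnf4a, a nuclear receptor at the centre of the hepatocyte programme, read 175, 186 and 172 CPM in the control libraries and 30.1, 27.9 and 28.1 CPM in the combination libraries. All combination libraries lay below all control libraries (-2.63 ± 0.07, adjusted p = 2.10e-18, edgeR). Nfib fell from 35.3 ± 8.17 to 7.56 ± 0.335 CPM, Nfia from 25.95 ± 9.38 to 6.23 ± 0.977 CPM and Foxa2, a pioneer factor, from 73.1 ± 0.556 to 27.7 ± 1.68 CPM. In bulk RNA, fewer cells of a type and less RNA per cell cannot be told apart.

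Products of liver cells moved both ways, and several of the deepest falls in the transcriptome were among them. Serpina1d and Serpina1b, which encode alpha-1 antitrypsins, went from 73.5 ± 21.95 to 1.55 ± 0.575 CPM and from 37.4 ± 12.1 to 0.8004 ± 0.115 CPM (-5.57 ± 0.38 and -5.54 ± 0.33); these are near-identical copies, so the split between them is uncertain. The apolipoprotein gene Apob fell from 429 ± 26.2 to 146 ± 5.903 CPM, the thyroxine carrier gene Ttr from 9.03 ± 3.08 to 0.397 ± 0.225 CPM and the haptoglobin gene Hp from 2.43 ± 0.538 to 0.153 ± 0.0974 CPM. Among 23 secreted protein genes that passed the filter on low counts, of 33 in the table, 8 were higher and 13 lower. Among 25 serpins that passed, of 32, 13 were higher and 11 lower. On the rising side, Serpinb5 (maspin) went from 0.116 ± 0.0005302 to 8.73 ± 0.702 CPM. Of 47 complement and coagulation genes 27 passed the filter, and 11 of the 47 had no count in control. Members of these lists near 0 in control could pass only by being high elsewhere, so the filter fixes part of the upward shares. Of the 27 tested complement and coagulation genes 10 were higher and 12 lower, beside 38.8% and 38.6% of all genes. Among them Masp1, a protease of the lectin pathway, fell from 77.8 ± 3.02 to 8.15 ± 0.613 CPM, and C1s1, which encodes a C1 protease, rose from 0.684 ± 0.137 to 21.6 ± 2.72 CPM.

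Detoxification genes changed in both directions, at shares near those of all genes (38.8% higher and 38.6% lower). Of 28 cytochrome P450 genes 13 were higher and 11 lower. Cyp2c68, of a large gene family with near copies, read 35.9, 52.6 and 33.01 CPM in the control libraries and 1.501, 0.969 and 1.301 CPM in the combination libraries, and Cyp46a1, a cholesterol hydroxylase best known from brain, rose from 0.633 ± 0.164 to 13.9 ± 0.947 CPM. Among 37 conjugation enzymes 13 were higher and 18 lower. Gstp1, a glutathione transferase, read 802, 815 and 846 CPM in the control libraries and 3449.8, 3161 and 3796 CPM in the combination libraries, one of the 5 largest gains in CPM of all genes (2.08 ± 0.08), while Sult1c2, a sulfotransferase, fell from 64.1 ± 8.08 to 9.23 ± 0.772 CPM. Ggt1, which breaks down extracellular glutathione, fell from 17.1 ± 3.32 to 0.564 ± 0.0738 CPM.

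Epithelial and biliary genes were lower more often than higher. Of 25 keratin and junction genes 7 were higher and 15 lower, and of 13 cholangiocyte and progenitor markers 0 were higher and 10 lower. Krt19, a keratin of bile duct cells, fell from 607 ± 82.6 to 107 ± 6.41 CPM, Krt8 from 1415 ± 62.99 to 665 ± 89.9 CPM and Krt7 from 95.003 ± 7.44 to 33.9 ± 6.19 CPM. Cldn2, a pore-forming claudin of tight junctions, read 418, 452 and 412 CPM in the control libraries and 92.1, 88.1 and 82.1 CPM in the combination libraries. It was 214 ± 7.15 CPM with FK228 and 374 ± 20.4 with YF, so the combination was below every other group. Among mesenchymal genes, Mmp14, a membrane-bound matrix protease, fell from 71.99 ± 4.26 to 11.95 ± 2.23 CPM, whereas Snai1, a repressor of epithelial genes, rose from 2.94 ± 0.146 to 9.31 ± 0.0731 CPM, and Col1a1 from 1.33 ± 0.147 to 4.43 ± 0.871 CPM.

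Genes of the TGF-beta pathway were mostly lower. Of 33 TGF-beta pathway genes 5 were higher and 21 lower, with a median of -0.56. The receptor gene Tgfbr1 read 212, 248 and 223 CPM in the control libraries and 58.4, 53.7 and 50.3 CPM in the combination libraries. That is a fall of 2.07 on the log2 scale, with no overlap. Ltbp1, which tethers latent TGF-beta to the matrix, fell from 63.97 ± 7.73 to 14.2 ± 0.994 CPM, whereas Ccn2, a known TGF-beta target, rose from 106 ± 15.9 to 631 ± 101 CPM. In the IGF axis 10 of 15 genes were lower and 2 higher, with the binding protein gene Igfbp4 from 828 to 125 CPM. In Wnt signalling, the ligand gene Wnt10a fell from 430.3 ± 31.6 to 72.6 ± 4.44 CPM and the feedback gene Axin2 rose from 8.65 ± 0.787 to 27.6 ± 2.78 CPM. In the Hedgehog pathway, the signal transducer Smo fell from 120.5 ± 6.97 to 26.7 ± 0.522 CPM and the target Gli1, near 0 in control, rose from 0.1804 ± 0.0889 to 16.8 ± 0.629 CPM. The Notch modifier Lfng fell from 23.3 ± 1.98 to 2.65 ± 0.627 CPM.

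Metallothioneins, small proteins that bind zinc and copper, were among the largest gains of abundant transcripts. Mt2 read 103, 113 and 141 CPM in the control libraries and 2065, 2067 and 2272 CPM in the combination libraries. All combination libraries lay far above the control libraries (4.16 ± 0.15, adjusted p = 7.56e-12, edgeR). Mt1 rose from 343 ± 49.9 to 2364 ± 307 CPM (2.78 ± 0.13). Both genes lie next to each other on chromosome 8, at chr8:94178883-94180327 and chr8:94172618-94173567, and are known to be switched on by a zinc-sensing factor that reads metal response elements with the core TGCACNC or TGCGCNC. Their RefSeq promoters (chr8:94178839-94179138, plus strand, and chr8:94172368-94172667, plus strand) are shown because these genes rose further with both treatments than with either. Capitals mark matches to the core on either strand; the motif was chosen after the values were seen.
Mt1: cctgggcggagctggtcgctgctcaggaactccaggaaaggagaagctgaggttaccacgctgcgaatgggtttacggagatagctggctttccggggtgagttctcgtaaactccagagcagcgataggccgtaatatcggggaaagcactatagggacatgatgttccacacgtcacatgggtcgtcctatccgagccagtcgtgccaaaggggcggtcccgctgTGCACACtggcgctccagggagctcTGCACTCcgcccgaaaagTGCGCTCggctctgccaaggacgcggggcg
Mt2: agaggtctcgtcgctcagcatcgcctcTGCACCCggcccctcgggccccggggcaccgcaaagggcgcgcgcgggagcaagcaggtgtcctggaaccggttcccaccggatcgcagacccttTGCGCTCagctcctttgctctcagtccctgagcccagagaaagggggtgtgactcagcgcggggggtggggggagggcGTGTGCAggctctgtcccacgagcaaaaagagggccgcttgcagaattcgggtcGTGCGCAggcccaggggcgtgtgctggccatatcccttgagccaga
The windows hold 3 and 4 matches, and 25.6% of all 27025 promoters hold at least 1. Among the 10651 tested genes with a promoter the share was 35.2%. Of the 10 tested metallothionein and zinc genes 6 were higher and 2 lower, with the zinc importer Slc39a10 from 56.6 to 25.7 CPM.

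Antioxidant and lysosome genes rose more often than they fell. Of 28 NRF2 target and glutathione genes 16 were higher and 8 lower (median 0.40). Hmox1, which breaks down heme, read 83.4, 86.3 and 97.6 CPM in the control libraries and 582, 685 and 664 CPM in the combination libraries, a log2 fold change of 2.85 ± 0.08. Srxn1, which repairs oxidised peroxiredoxins, rose from 48.2 ± 4.197 to 270.0 ± 28.4 CPM, and Prdx1 from 1339 ± 21.01 to 3773 ± 172 CPM. The ferritin genes Ftl1 (from 6165 ± 391 to 10667 ± 319 CPM) and Fth1 (from 3457 ± 51.7 to 7132 ± 213 CPM) were among the 5 largest gains in CPM, and both have many processed copies in the genome that could take reads. Uros, an enzyme of heme synthesis, rose from 15.7 ± 0.954 to 105 ± 0.824 CPM. Of 23 iron and heme genes 11 were higher and 8 lower, beside 38.8% and 38.6% of all genes. In the lysosome and autophagy list 28 of 35 genes were higher and 2 lower, with a median of 0.71. Ctsl, a lysosomal protease, rose from 247 ± 7.77 to 1333 ± 55.8 CPM and the membrane protein gene Lamp1 from 362 ± 12.3 to 956 ± 29.9 CPM, while Gusb fell from 37.95 ± 0.399 to 14.3 ± 2.13 CPM. Clu, a secreted chaperone, gained most in CPM, from 1257 ± 131 to 6022 ± 122 CPM.

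Stress pathways showed single strong genes rather than a shift of the list. Ddit3, which encodes the stress factor CHOP, read 36.3, 34.3 and 37.8 CPM in the control libraries and 169, 164 and 174 CPM in the combination libraries (2.22 ± 0.06). Of 33 integrated stress response genes 13 were higher and 12 lower, near the shares over all genes (38.8% and 38.6%). Atf5, another factor of that response, fell from 116 ± 22.1 to 49.7 ± 3.15 CPM, as did the serine pathway enzyme Shmt2, from 138 ± 18.6 to 65.2 ± 4.33 CPM. Of 25 unfolded protein response genes 12 were higher and 7 lower, with the sensor Ern1 from 9.46 to 28.98 CPM and its target Xbp1 from 219 to 106 CPM. In the heat shock list 8 of 20 were higher and 9 lower: the cytosolic chaperone Hsp90aa1 rose from 524 ± 20.7 to 1478 ± 118 CPM and the small chaperone Cryab fell from 364 ± 21.004 to 224 ± 13.9 CPM. Proteasome genes changed little in size, with 18 of 31 higher, 7 lower (4 without combination replicate 2) and 0 past 2-fold in either direction.

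Metabolic genes moved both ways, and their counts stand beside 38.8% of all genes higher and 38.6% lower. In the respiratory chain 25 of 41 nuclear genes were higher and 5 lower (3 without combination replicate 3), with Ndufv1, a complex I subunit, from 154 to 375 CPM. Mitochondrially encoded mRNAs were not analysed here. Of 34 glycolysis and hypoxia genes 18 were higher and 7 lower, with the kinase subunit Pfkp from 8.904 to 37.3 CPM and its liver isoform Pfkl from 259 to 119.9 CPM. Pcx, pyruvate carboxylase, rose from 12.8 ± 0.8902 to 90.7 ± 3.69 CPM, and Slc37a4, which carries glucose 6-phosphate into the endoplasmic reticulum, fell from 33.3 ± 3.37 to 8.38 ± 0.341 CPM. In fat metabolism Acss2, which makes acetyl-CoA from acetate, read 6.62, 7.74 and 7.19 CPM in the control libraries and 77.5, 79.2 and 83.7 CPM in the combination libraries (3.48 ± 0.08), while Fasn, the fatty acid synthase, fell from 183 ± 4.54 to 65.4 ± 5.43 CPM and Scd1 rose from 27.4 ± 3.02 to 67.7 ± 3.43 CPM. The fatty acid carrier genes Cd36 and Fabp4, near 0 in control, reached 17.3 ± 1.31 and 11.4 ± 0.919 CPM, and the lipase inhibitor G0s2 fell from 36.4 ± 3.499 to 4.97 ± 0.347 CPM. Of 29 cholesterol genes 13 were higher and 8 lower, with Dhcr7, a late enzyme of the pathway, from 26.8 to 70.2 CPM. Cytosolic ribosomal protein genes were lower in 20 of 41, with a median of -0.16 and 0 past 2-fold, and Eef1a1, an elongation factor with processed copies in the genome, lost most in CPM of all genes, from 13250.3 ± 369 to 9542 ± 299 CPM.

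Interferon-stimulated genes rose more often than they fell, while inflammatory genes and chemokines mostly fell. Of 36 interferon-stimulated genes 24 were higher and 9 lower, 15 and 4 past 2-fold. Rsad2 (viperin, an antiviral enzyme) read 0.155, 0.347 and 0.117 CPM in the control libraries and 36.2, 39.99 and 38.4 CPM in the combination libraries, a ratio of 187 (95% counting interval 115 to 327). Usp18, which removes ISG15 from proteins, rose from 1.44 ± 1.06 to 28.7 ± 2.36 CPM and Isg15 itself from 3.16 ± 0.423 to 28.8 ± 2.02 CPM; both were chosen after their values were seen. Oas1a, one of several near copies, rose from 0.206 ± 0.0446 to 17.6 ± 0.953 CPM. In antigen presentation the transactivator Nlrc5 rose from 0.168 ± 0.0447 to 5.58 ± 0.282 CPM and the immunoproteasome gene Psmb9 from 0.657 ± 0.268 to 6.52 ± 0.822 CPM, whereas Psmb10 fell from 46.3 ± 3.94 to 4.05 ± 0.478 CPM and the trimming peptidase Erap1 from 48.3 ± 3.796 to 7.44 ± 0.776 CPM. Of 29 NF-kB and inflammatory genes 5 were higher and 21 lower (median -0.56), and of 19 chemokines 5 were higher and 11 lower (-0.77). The adhesion molecule Vcam1 fell from 145 ± 12.98 to 19.4 ± 1.65 CPM, the chemokines Ccl9 from 108 ± 7.43 to 4.55 ± 0.702 CPM and Cxcl5 from 4183 ± 161 to 1935 ± 182 CPM, and the acute phase gene Saa3 rose from 258 ± 32.6 to 1736 ± 74.996 CPM.

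Immediate early and MAP kinase feedback genes held some of the clearest rises. Fos, a subunit of AP-1, read 1.24, 1.08 and 0.933 CPM in the control libraries and 135, 123 and 132 CPM in the combination libraries. The groups lie far apart, 6.899 ± 0.12 on the log2 scale (adjusted p = 3.68e-20, edgeR). Egr1, a growth factor response gene, rose from 11.1 ± 3.28 to 83.1 ± 13.2 CPM, and Jun, the partner of Fos, fell from 59.8 ± 2.22 to 33.2 ± 2.41 CPM; Jun was named after its values were seen. Of 22 genes of the list 10 were higher and 4 lower, 63.6% called in all, which is below the 77.4% of all genes. Among 22 MAP kinase feedback genes 13 were higher and 3 lower, with the phosphatases Dusp1 from 6.24 to 31.4 CPM and Dusp5 from 5.38 to 29.02 CPM and the transcription factor Etv5 from 1.12 to 7.98 CPM.

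Genes of other tissues appeared from near 0. Of 26 tested neuronal genes that the repressor REST keeps off outside neurons, 19 were higher and 1 lower (0 without control replicate 2 and 2 without combination replicate 2), 16 of them higher past 2-fold, with a median of 1.99. The other 20 of 46 members failed the filter, and 9 of the 46 had no count in control. Members near 0 in control entered only by being high elsewhere, and 47.7% of all genes under 1 CPM in control rose past 2-fold, so these counts describe the members that passed and no more. Stmn2, a neuronal microtubule regulator, had 1 count over the control libraries and 1118 over the combination libraries, a ratio of 1205 (95% counting interval 216 to 47619.9). Syp, a synaptic vesicle protein gene named after its values were seen, rose from 3.29 ± 0.588 to 33.2 ± 2.24 CPM, and Cntnap2 from 0.334 ± 0.445 to 14.4 ± 1.02 CPM. The alpha globin gene Hba-a1 read 0.0775, 0.0771 and 0 CPM in the control libraries and 138, 104 and 136 CPM in the combination libraries, a ratio of 2450.1 (95% counting interval 957 to 8994), and its reads may be shared with the near-identical Hba-a2. Gng8, a G protein gamma subunit, had no count in control and 10.05 CPM in the combination, at least 261-fold higher against a floor of 3 counts over the group. Among called genes of 5 CPM or more on average over the 6 libraries, with a standard symbol and groups that did not overlap, the others of the 10 highest were H3c13, Rsad2 and 5 more genes whose ratio follows with its 95% counting interval. It was 339 (132 to 1245) for Cd36, 297 (116 to 1091) for the protease inhibitor Slpi and 208 (88.7 to 641) for the neuropeptide gene Nts. It was 197 (84.3 to 609) for Bcas1 and 163 (69.4 to 503) for Nrxn2, a synaptic adhesion protein gene. Fitted log2 values of several of these rest on 1 control library: without control replicate 3 that of H3c13 went from 10.97 to 14.10, that of Stmn2 from 9.75 to 11.59 and that of Slpi from 8.07 to 9.28, without control replicate 2 that of Nts from 7.58 to 9.09 and that of Nrxn2 from 7.23 to 7.89, and without control replicate 1 that of Cd36 from 8.26 to 9.47.

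Markers of other liver cells moved alongside, without a common direction. Over the 17 macrophage and leukocyte markers the summed level was 148 to 199 CPM in control and 70.2 to 80.7 CPM in the combination. Most of the control sum was Cd14, which fell from 154 ± 22.98 to 10.4 ± 1.85 CPM. Of the 17 markers 9 passed the filter on low counts, and 5 of these were higher and 2 lower. Members near 0 in control could pass only by being high elsewhere, so these counts describe the members that passed and no more. The phagocyte oxidase subunit Cybb fell from 12.4 ± 1.82 to 0.649 ± 0.114 CPM and Cd68 rose from 2.53 ± 0.391 to 49.8 ± 4.72 CPM. Adgre1, Clec4f, Itgax, Tyrobp and Timd4 had no count in control. The 14 stellate cell and fibroblast markers in the table summed to 7.75 to 10.6 CPM in control and 33.9 to 41.7 CPM in the combination. Only 5 of them passed the filter on low counts, and Col3a1 and Ngfr had no count in control. The 16 endothelial markers summed to 16.7 to 18.96 CPM in control and 30.8 to 33.9 CPM in the combination, with Kdr, Tie1 and Erg at 0 in control and Egfl7 from 2.74 to 22.6 CPM. The 15 cholangiocyte markers in the table summed to 6916 to 7072 CPM in control and 5353 to 6179.7 CPM in the combination, and Krt23 had no count in control. Most of that sum was Spp1, with a mean of 4413 CPM over the 6 libraries and a log2 fold change of 0.15. Of the 13 tested members 10 were lower and 0 higher. The labels name only AML12 cells, so these are transcripts read in a hepatocyte line. Whether any other cells contributed to the results above was not tested.

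**Figure D4:**
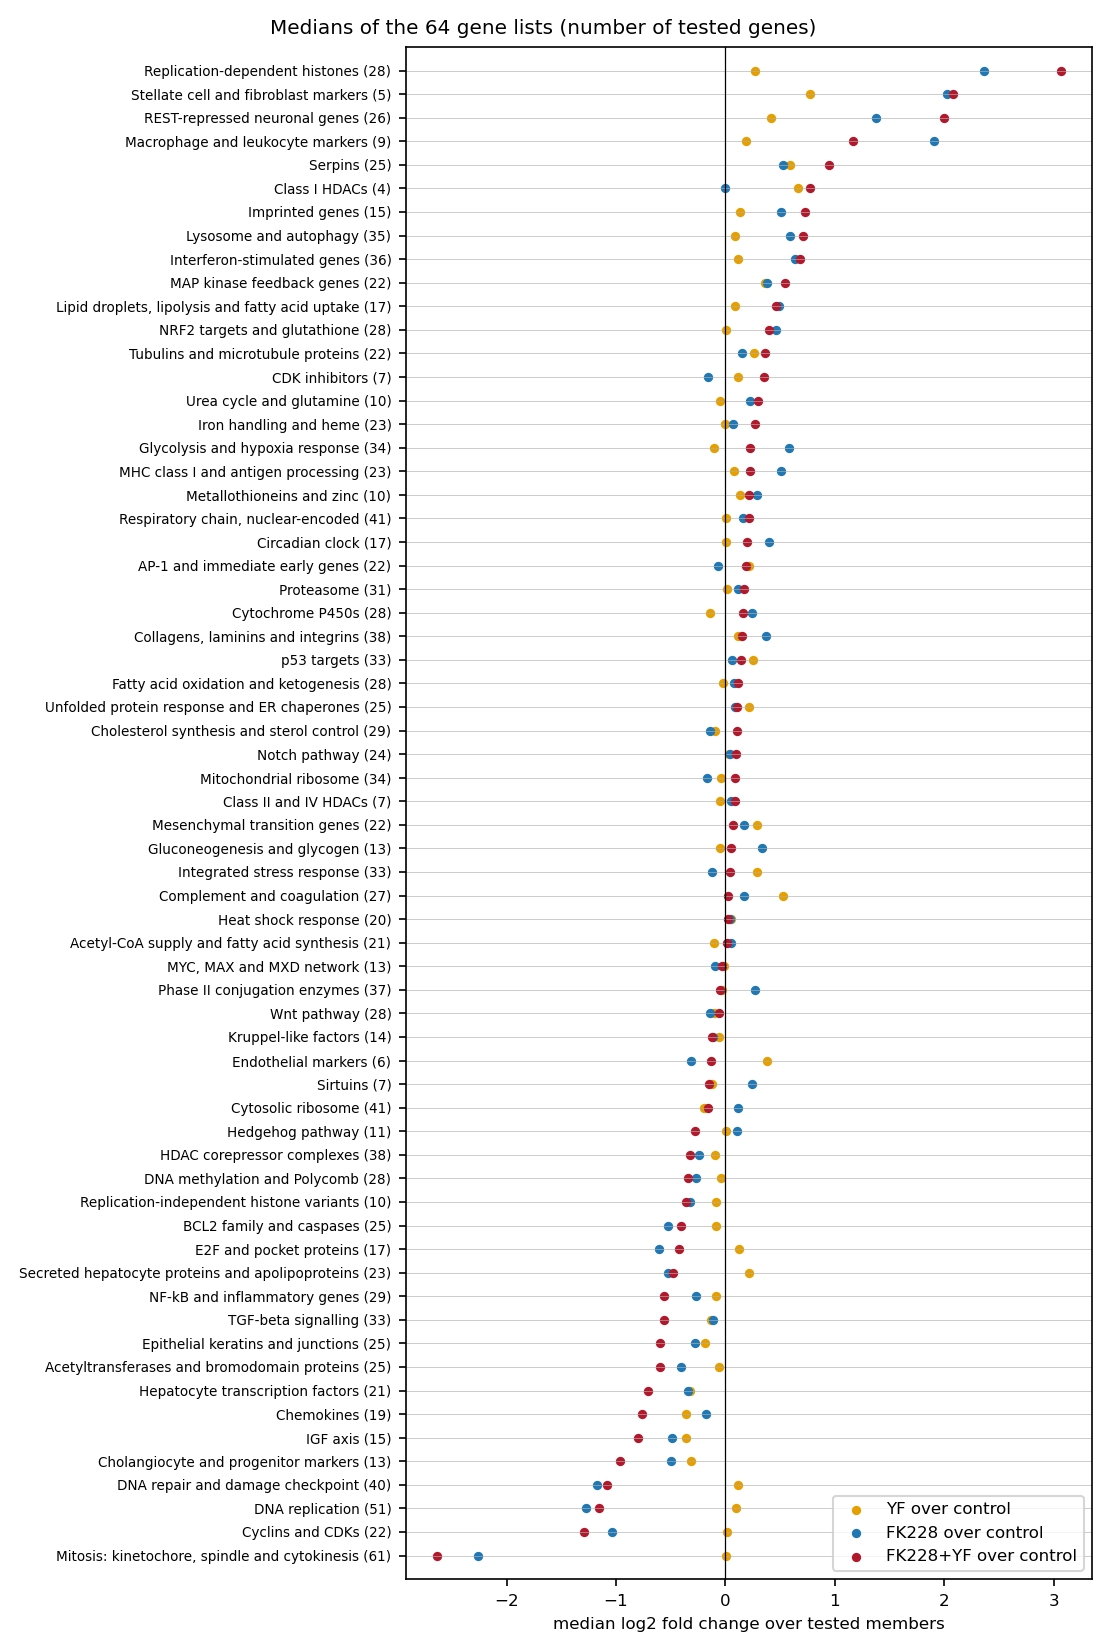
Each row is 1 of the 64 gene lists with its number of tested genes, and points give the median log2 fold change over those genes for YF, FK228 and FK228+YF, each over the same control libraries. Mitosis genes stand lowest in the combination at -2.63 and replication-dependent histones highest at 3.06, and the median of all 13346 genes was 0.01. The histone median covers only the 28 of 44 members that passed the count filter, with a median control level of 0.246 CPM. Members near 0 in control could pass only by being high elsewhere, and all genes under 1 CPM in control had a median of 1.69.

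Adding YF to FK228 changed 52.9% of genes: 3549 (26.6%) were higher in the combination than with FK228 alone and 3514 (26.3%) lower, by edgeR's quasi-likelihood test. Among genes of 5 CPM or more on average, the 5 highest were H3c13, H3c11, Hdac1 (2.86 ± 0.06), Fos, 3.62 CPM with FK228 and 130.0 CPM with both (5.16 ± 0.102), and Cfap52, a cilium gene (2.76 ± 0.14). The lowest were the diamine oxidase gene Aoc1 (14.6 ± 4.11 and 3.37 ± 1.01 CPM), the sodium pump subunit gene Fxyd2, Depp1, the TGF-beta docking receptor gene Lrrc32 and Serpina1b. By list, 27 of 61 mitosis genes were lower still than with FK228 and 4 higher, whereas of 51 replication genes 18 were higher and 2 lower (4 lower without control replicate 1, control replicate 2, FK228 replicate 3 or combination replicate 1). Cytosolic ribosomal protein genes were lower in 29 of 41 and higher in 0 (median -0.24), mitochondrial ones higher in 21 of 34 (median 0.22). Of 21 hepatocyte transcription factors 13 were lower, and of 19 chemokines 12.

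Adding FK228 to YF changed 70.6% of genes, 4635 (34.7%) upwards and 4791 (35.9%) downwards, by the same test. All 61 mitosis genes were lower than with YF alone. Among genes of 5 CPM or more on average, Rsad2 (5.02 ± 0.14), Csn3, a casein gene (4.93 to 75.6 CPM), Rassf4, Gsdma, a pore-forming gasdermin (2.67 to 32.6 CPM), and Oas1a were the highest. Cyp2c68, Muc5b, a gel-forming mucin gene (73.6 to 4.26 CPM), Cybb, the chemokine gene Cxcl17 and the phosphodiesterase gene Pde4c were the lowest.

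The interaction term asks whether FK228 acts differently with YF than without it, on the log2 scale. It passed the test in 3531 genes (26.5%): 1484 (11.1%) lay above the sum of the single effects and 2047 (15.3%) below. The genes ranked here had a mean of 5 CPM or more over the 12 libraries. Metallothioneins were among the highest of them: Mt1 was 343 ± 49.9 CPM in control cells, 703 ± 116 after FK228, 375 ± 15.8 after YF and 2364 ± 307 after both, 1.62 ± 0.18 above the sum (adjusted p = 1.87e-05, edgeR). Mt2 was 119 ± 19.7 CPM in control cells, 429 ± 81.8 after FK228, 242 ± 17.6 after YF and 2135 ± 119 after both (1.29 ± 0.19). Each single treatment left both genes below every library of the combination. Ddit3 was 36.1 ± 1.76 CPM in control cells, 61.7 ± 4.32 after FK228, 53.6 ± 2.28 after YF and 169 ± 4.93 after both (0.88 ± 0.09), and Srxn1 48.2 ± 4.197 CPM in control cells, 100.4 ± 7.81 after FK228, 63.3 ± 1.83 after YF and 270.0 ± 28.4 after both (1.03 ± 0.11). Peg10, an imprinted gene derived from a retrotransposon, was 4.36 ± 0.86 CPM in control cells, 6.19 ± 0.975 after FK228, 4.74 ± 0.456 after YF and 23.8 ± 2.75 after both (1.82 ± 0.21), and Mxd1, an antagonist of MYC, 7.25 ± 1.397 CPM in control cells, 6.45 ± 0.824 after FK228, 6.11 ± 0.636 after YF and 19.2 ± 1.88 after both (1.82 ± 0.196). In Peg10 and Mxd1 the combination libraries lay above all others. Efnb2, an ephrin ligand, and Zfp36, which promotes decay of mRNAs with AU-rich elements, completed the 5 highest at that level, and both were lower with FK228 alone (8.499 and 11.6 CPM) than with both (29.1 and 27.01 CPM).

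Among called genes with a mean of 5 CPM or more over the 12 libraries, Hba-a1, Cd36, Gli1, Ndrg2 and Serpinb1a had the lowest terms, and each was under 1 CPM in control and higher in every library of either single treatment, as Ndrg2, 0.271 ± 0.0394 CPM in control cells, 12.9 ± 1.14 after FK228, 4.25 ± 1.04 after YF and 17.9 ± 1.37 after both. The term of such a gene rests on a few control counts. Other genes fell further than the sum: Cldn2 (-1.095 ± 0.09), Tgfbr1 (-0.81 ± 0.11), Hdac7 (-0.66 ± 0.096) and Cxcl5, which was 4183 ± 161 CPM in control cells, 3684 ± 176 after FK228, 4698 ± 389 after YF and 1935 ± 182 after both (-1.097 ± 0.11). By list, 15 of 29 cholesterol genes and 18 of 34 mitochondrial ribosomal genes lay above the sum and 0 below in either, among them Dhcr7 (0.72 ± 0.099) and Mrpl13 (0.495 ± 0.09). Below the sum were 22 of 61 mitosis genes, 15 of 29 inflammatory genes, 17 of 38 matrix genes and 16 of 25 serpins, beside 15.3% of all genes. Above it were 3 mitosis genes and 0 inflammatory, matrix or serpin genes, beside 11.1% of all genes. A term below the sum can be a smaller rise as well as a deeper fall, and 13 of 25 serpins and 18 of 38 matrix genes were higher than in control.

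**Figure D5:**
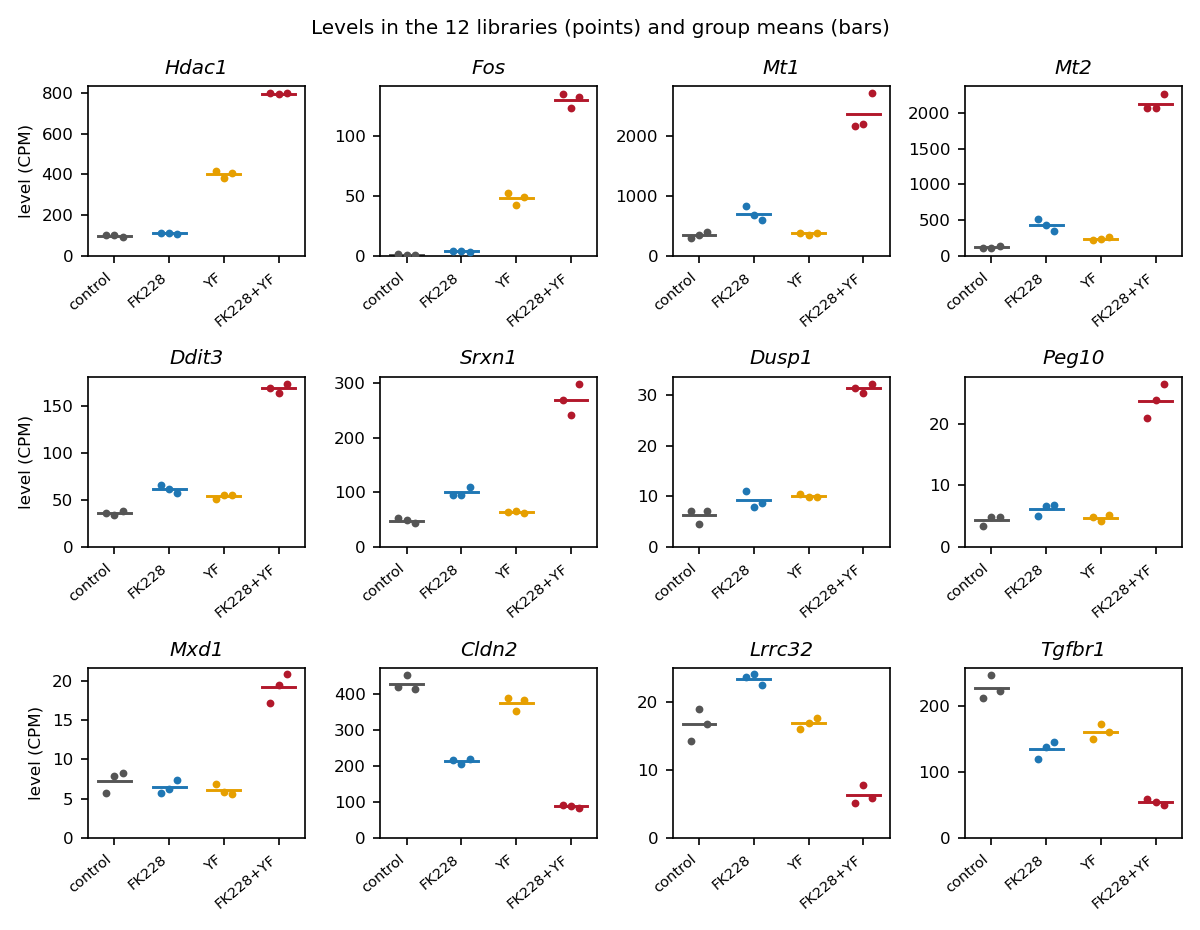
Each panel shows 1 gene, with its level in CPM in the 12 libraries (points) and the group means (bars) for control, FK228, YF and FK228+YF. In the upper 9 panels from Hdac1 to Mxd1 the combination libraries lie above all others, and in Cldn2, Lrrc32 and Tgfbr1 they lie below.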

How the data were processed

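RNA was sequenced from 12 AML12 libraries, 3 in each of 4 groups, on a BGISEQ platform per the labels' protocols. The authors deposited 1 table with an expected count and a TPM value for each gene and library. Tools listed in the submitters' processing notes, with no role, are RSEM 1.2.12, DESeq2 1.4.5, HISAT2 2.0.4 and Bowtie2 2.2.5, and the genome build there is GRCm38.p6. Of the expected counts deposited, 16.6% were not whole, and all were rounded here. The TPM values deposited by the authors entered no test. Groups were taken from the sample titles.

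Genes passed edgeR's filterByExpr over the 4 groups. edgeR 4.0.16 in R 4.3.3 fitted 1 robust quasi-likelihood model to all 12 libraries with TMM factors, since the groups then share an estimate of spread. Contrasts were the combination against control, FK228 and YF, and the interaction. P-values were adjusted by Benjamini-Hochberg over all 13346 genes, with a threshold of 0.05, and glmTreat tested against 2-fold. Levels are CPM with TMM factors. SE was taken from the log2 fold change and the F statistic. The precision of a level rests on 23664446 to 26122998 counts a library, and counting intervals (95%) and the floor of 3 counts cover counting error only.

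On simulated counts for the combination against control (12496 genes), the test found 88.1% of 67 genes changed by 0.5, 97.0% of 67 changed by 1.5 and 100% of 66 changed by 3 on the log2 scale, with 12 false calls. The changed genes were drawn from those of 1 CPM or more in control, and all other genes were left unchanged. The simulation thus covers neither genes under 1 CPM in control nor a shift of most genes, as in these data. Genes were named by a rule: the 10 highest and 10 lowest called genes of mean CPM 5 or more with a standard symbol whose groups did not overlap, the 5 largest gains and losses in CPM, up to 4 called members with the largest change (mean CPM 1 or more) of each of 64 gene lists, the class I HDAC genes, and the 5 highest and lowest called genes of the other contrasts. Exceptions are marked in the text, besides the 14 hepatocyte markers. The members and lists were chosen with earlier results of these data known. IDs of 18980 of 19037 genes matched RefSeq, which gave positions and promoters. Promoters were found for under 80% of all tested genes, so checks of motifs over all genes that rose or fell are void and are not given. Alternatives were RLE size factors, other count filters, DESeq2 1.42.0, limma-voom (limma 3.58.1), a fit to the compared groups alone, a replicate block and leaving out each library. Mitochondrially encoded mRNAs were not analysed here, and some genes are not reported here.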

Additional observations from a re-analysis of the deposited data

Results flagged for a closer look

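The effect of FK228 differed with and without YF, by the interaction term of edgeR's quasi-likelihood test, in 1484 genes above and 2047 genes below the sum of the single effects. The 5 highest terms among genes of 5 CPM or more were 1.82 ± 0.21 for Peg10, 1.82 ± 0.196 for Mxd1, 1.62 ± 0.18 for Mt1, 1.53 ± 0.12 for Efnb2 and 1.33 ± 0.12 for Zfp36, all on the log2 scale. The 5 lowest were -6.63 ± 0.801 for Hba-a1, -4.899 ± 0.42 for Cd36, -4.63 ± 0.31 for Gli1, -3.47 ± 0.304 for Ndrg2 and -3.45 ± 0.26 for Serpinb1a. Their control levels were 0.0515, 0.0516, 0.1804, 0.271 and 0.425 CPM, and without control replicate 1 the term for Cd36 was -6.12.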

How the results depend on the processing

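All counts over all genes stayed within 1.5 times under each alternative that gave them, except 1. With a filter of 5 CPM in 3 libraries, 773 genes in place of 1494 rose past 2-fold and 955 in place of 1233 fell; only 10771 genes were tested there. Hdac2, which was not called, changed sign at values near 0: it was -0.014 without a count filter, and over fits leaving out 1 library it ran from -0.039 to 0.043, beside 0.01. Leaving out each library in turn gave 4988 to 5307 genes higher and 4979 to 5222 lower than control, and 1460 to 1576 and 1180 to 1259 past 2-fold. It gave 3024 to 3700 higher and 3090 to 3684 lower than FK228, 4342 to 4789 and 4497 to 4935 against YF, and 1113 to 1548 and 1692 to 2143 for the interaction. A replicate block gave 5116 higher and 5096 lower than control, 1477 and 1219 past 2-fold, 3412 and 3388 against FK228, 4570 and 4722 against YF, and 1324 and 1820 for the interaction. Pairing by replicate number was not detected: deviations of same-numbered control and combination libraries correlated at -0.10, -0.12 and -0.03, and no library correlated best with its own number. With 3 libraries in a group, and no check of the FK228 and YF libraries, this cannot show how the samples were set up. RLE size factors moved the median log2 fold change of all genes from 0.01 to 0.03. RLE makes the same assumption as TMM, so it cannot test for a shift of most genes together. Of 900 results on named genes 836 kept direction and call under every alternative that tested them. Likewise 475 of 640 list counts stayed within 1.5 times and 11 of 64 list medians within the spread between libraries. Not every result was tested under each alternative. With the filter of 5 CPM 813 results on named genes were the same and 2 weaker. With the fit to the compared groups alone, which gave no interaction, 755 were the same and 4 weaker. Depth limits the fold of genes near 0 in control, which rests on a few counts.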

Other observations

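Single genes of several groups not described above changed, and the counts of each group stand beside 38.8% of all genes higher and 38.6% lower. Of 17 clock genes 7 were higher and 7 lower: Arntl, which encodes the activator BMAL1, rose from 13.04 ± 0.751 to 42.3 ± 2.75 CPM, and the repressor Cry1 from 8.096 ± 1.75 to 21.2 ± 0.143 CPM. Of 22 tubulin and microtubule genes 12 were higher and 7 lower, with the neuronal microtubule proteins Map2 from 2.75 to 42.01 CPM and Map1a from 0.348 to 19.03 CPM. Tubb2a rose from 63.5 ± 4.95 to 176 ± 3.82 CPM. Of 15 imprinted genes 9 were higher and 3 lower, and Sgce, the neighbour of Peg10, fell from 64.1 ± 3.18 to 25.2 ± 2.44 CPM while Peg10 rose. In the MYC network 6 of 13 genes were higher and 5 lower, with a median of -0.03: the antagonists Mxd1 and Mxi1 rose, Mxi1 from 60.4 ± 6.42 to 121 ± 6.93 CPM, and Mlx, a further factor of the network, from 40.9 ± 0.918 to 60.5 ± 3.11 CPM.

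In nitrogen metabolism Arg2, the mitochondrial arginase, rose from 0.103 ± 0.02202 to 6.91 ± 0.968 CPM, and Ass1, which makes argininosuccinate, from 11.8 ± 1.54 to 34.002 ± 2.48 CPM, while the glutaminase Gls2 fell from 53.5 ± 6.1004 to 21.4 ± 0.654 CPM; of 10 genes 5 were higher and 3 lower. Ass1 was 38.9 CPM with FK228 and 52.7 with YF. In fatty acid oxidation and ketone metabolism 12 of 28 were higher and 8 lower. Oxct1, which lets cells use ketone bodies, rose from 41.6 ± 2.04 to 101 ± 6.34 CPM.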
